A study of Arabidopsis thaliana with 12 samples.

Results

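In Arabidopsis thaliana roots, 142 of 33602 genes were lower 1 h after addition of the synthetic cytokinin benzyladenine (BA) in wild type and in the quintuple mutant bpc1,2,3,4,6 alike. They were selected on measured values. A gene was taken when its mean log2(RPKM + 0.5) with BA was at least 1 below that with vehicle in each genotype, when all 3 BA libraries lay below all 3 vehicle libraries in each genotype, and when its vehicle mean was at least 2 RPKM in both. RPKM scales reads by gene length and library depth, so levels can be compared between genes. The numeric criteria were met by 156 genes, and 14 were left out by family: 7 ERF, 4 WRKY, 2 isopentenyltransferase and 1 Aux/IAA gene. Because these BA and vehicle values chose the genes, they are given below as a description, with no test of the BA effect.

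The series holds 12 RNA sequencing libraries in 4 groups of 3. The seedlings, 10 days old, were Col-0 wild type (WT) or bpc1,2,3,4,6 (bpc), a line labelled as mutant in 5 genes for BASIC PENTACYSTEINE factors, which bind GAGA repeats. For each treatment, 12 whole seedlings were shaken in liquid medium with 5 µM BA or with 0.01% of a 5 N NaOH stock as vehicle for 1 h, and their whole roots were then cut off. The sources used here do not give where the mutations of bpc lie. No label ties the 3 libraries of a group to separate cultures, so p-values cover the spread among these libraries only, and that spread may be technical. Library values are given below in the order of replicates 1, 2 and 3.

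Cytokinin is sensed by membrane histidine kinases that pass phosphate through shuttle proteins to response regulators in the nucleus. The type-B response regulators are transcription factors that bind a short core motif, AGATT, and switch on early genes such as the type-A response regulators, which feed back on the pathway. In roots, cytokinin opposes auxin, restrains the start of lateral roots and alters nutrient uptake.

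The libraries held 9427912 to 13951019 reads by the steps of their RPKM values. All 10 type-A response regulators rose with BA in both genotypes, with a median log2 change of 3.54 in WT and 3.78 in bpc. In bpc with vehicle, BPC1, BPC2 and BPC6 stood at 15.3%, 9.23% and 4.12% of their WT levels, whereas BPC4 stood at 69.9% and BPC3, low in both genotypes, at 228%. WT BA replicate 1 stood apart: its length-weighted RPKM total was 86.5% of the median library, and it carries the read divisor of WT vehicle replicate 2. It was the lowest of its group for 66.9% of the 142 genes and for 70.1% of all tested genes. Marker genes of root hairs, of the endodermis and, for leftover shoot tissue, of photosynthesis were above 0 in every group. In whole roots, fewer cells of a type and less RNA per cell cannot be told apart.

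BA left a median of 35.8% of the vehicle level in either genotype, with a range of 8.93% to 50.4% in WT and 7.8% to 48.8% in bpc. The log2 changes ran from -2.87 to -1.0 in WT (median -1.35) and from -3.14 to -1.01 in bpc (median -1.32). Only 4 of the 142 were at -2 or lower in both genotypes, and 31 at -1.5 or lower in both. The WT vehicle means ran from 2.00 to 205 RPKM with a median of 14.3, so the set spans weakly and strongly expressed genes: 18 were under 5 RPKM in both genotypes with vehicle and 15 over 50 RPKM. The fall was larger in WT for 76 and in bpc for 66, and for 97 the log2 changes of the genotypes lay within 0.25 of each other. The median difference, bpc change minus WT change, was 0.015. WT BA replicate 1, with its low total, is in every WT change, so nothing is read from this split. For comparison, 292 genes met the mirror rule for higher levels with BA.

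**Figure D1:**
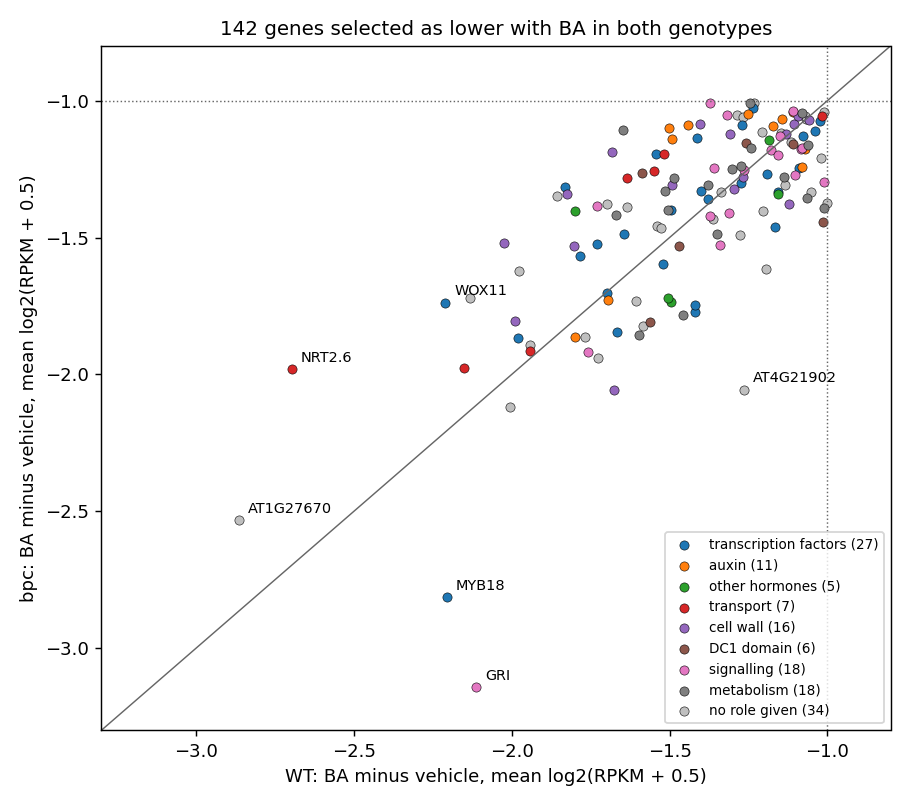
Each point is 1 of the 142 genes, placed by its mean log2(RPKM + 0.5) change with BA in WT (x axis) and in bpc (y axis), coloured by the role assigned to it; the dotted lines are the selection limit of -1 and the solid line marks equal change. Most points crowd between -1 and -2 near the line of equal change, and GRI (-3.14 in bpc) and AT1G27670 (-2.87 in WT) lie farthest out.

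The limit cut through a continuous range of values. Just inside it were AT1G58420, encoding a conserved protein, the glucosyltransferase gene UGT71C3 and the ankyrin repeat gene AT5G54720, whose smaller log2 changes were -1.01, -1.01 and -1.0. In WT, AT1G58420 stood at 8.14, 8.7 and 9.94 RPKM with vehicle and at 3.01, 4.38 and 3.22 after BA, and in bpc at 8.36, 9.48 and 7.43 and 3.94, 5.81 and 2.58. In WT, UGT71C3 stood at 26.1, 24.7 and 23.3 RPKM with vehicle and at 7.81, 10.3 and 12.8 after BA, and in bpc at 20.5, 24.9 and 18.3 and 10.7, 9.11 and 10.9. In WT, AT5G54720 stood at 3.51, 4.09 and 5.53 RPKM with vehicle and at 2.39, 1.63 and 1.75 after BA, and in bpc at 3.6, 2.35 and 5.26 and 1.02, 1.21 and 0.983. The genotypes overlapped with vehicle in all of these, and with BA the bpc libraries of AT5G54720 lay below those of WT. Just outside were AT1G02710, the zinc finger gene IDD11 and AT3G24450, with smaller changes of -0.996, -0.995 and -0.995. RPKM values of AT1G02710 were 10.6, 9.73 and 21.5 in WT with vehicle, 4.13, 6.36 and 4.85 in WT with BA, 7.4, 6.43 and 12.2 in bpc with vehicle and 5.89, 3.14 and 3.28 in bpc with BA. RPKM values of IDD11 were 6.25, 6.84 and 14.2 in WT with vehicle, 3.13, 4.7 and 4.36 in WT with BA, 7.97, 8.46 and 12.9 in bpc with vehicle and 3.91, 2.85 and 2.86 in bpc with BA. RPKM values of AT3G24450 were 8.54, 6.14 and 8.82 in WT with vehicle, 3.75, 5.62 and 2.22 in WT with BA, 5.21, 5.82 and 6.34 in bpc with vehicle and 2.61, 2.18 and 1.83 in bpc with BA. These outsiders also had BA libraries below all vehicle libraries. Of the genes that missed 1 criterion alone, 57 missed the WT change, 59 the bpc change, 13 the vehicle level and 3 the separation of the libraries.

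The lowest values relative to vehicle belonged to a mixed group. In WT, AT1G27670 stood at 8.99, 8.35 and 8.49 RPKM with vehicle and at 0.649, 1.08 and 0.572 after BA, and in bpc at 8.51, 9.1 and 8.69 and 1.48, 1.09 and 0.803. This uncharacterized gene was even among its vehicle libraries, and the genotypes overlapped with either treatment (log2 change -2.87 in WT and -2.53 in bpc). In WT, GRI stood at 13.2, 12.5 and 16.7 RPKM with vehicle and at 2.71, 3.94 and 2.15 after BA, and in bpc at 12.8, 11.6 and 12.1 and 1.15, 0.667 and 1.03. GRI encodes GRIM REAPER, a secreted protein of the Stig1 family that yields a peptide in cell death signalling, and its bpc libraries with BA lay below all WT libraries with BA (log2 change -2.11 in WT and -3.14 in bpc). MYB18 went from 22.7, 19.6 and 30.7 RPKM with vehicle to 3.73, 4.73 and 6.2 with BA in WT, and from 14.7, 17.2 and 15.9 to 1.82, 2.55 and 1.3 in bpc. MYB18, also known as LAF1, encodes a MYB factor of phytochrome A signalling, and its bpc libraries were below its WT libraries with vehicle and with BA (log2 change -2.21 in WT and -2.81 in bpc).

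Nitrogen transport supplied several more of them. In WT, NRT2.6 stood at 23.1, 21.6 and 20.7 RPKM with vehicle and at 4.54, 1.64 and 3.27 after BA, and in bpc at 7.45, 6.06 and 8.71 and 0.794, 0.548 and 5.26. NRT2.6 belongs to the high-affinity nitrate transporters. Its bpc BA replicate 3 was far above the other 2 libraries of that group, and the WT libraries with vehicle all exceeded those of bpc (log2 change -2.70 in WT and -1.98 in bpc). GDU2 went from 10.3, 10.1 and 11.9 RPKM with vehicle to 1.24, 2.83 and 2.31 with BA in WT, and from 12.9, 13.2 and 9.07 to 3.82, 2.4 and 1.81 in bpc. GDU3 went from 57.7, 66.6 and 57.4 RPKM with vehicle to 14.4, 15.3 and 16.4 with BA in WT, and from 61.7, 81 and 63.5 to 19.1, 15.3 and 19 in bpc. GDU2 and GDU3 encode GLUTAMINE DUMPER proteins, which promote amino acid export, and both overlapped between the genotypes with either treatment (for GDU3, log2 change -1.94 in WT and -1.91 in bpc; for GDU2, -2.15 and -1.98).

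Of the other genes among the 12 with the lowest mean change, WOX11 and IBH1 are described below with the transcription factors, and 4 had varied roles. RPKM values of AT5G38790 were 9.59, 6.72 and 16.8 in WT with vehicle, 1.08, 3.12 and 2.9 in WT with BA, 6.86, 6.14 and 10.5 in bpc with vehicle and 0.866, 1.15 and 2.41 in bpc with BA. Replicate 3 was the highest vehicle library of this uncharacterized gene in both genotypes (log2 change -2.01 in WT and -2.12 in bpc). RPKM values of AT2G15830 were 15.7, 19 and 15.1 in WT with vehicle, 3.56, 4.09 and 2.64 in WT with BA, 20.7, 23 and 15.5 in bpc with vehicle and 4.34, 8.43 and 4.64 in bpc with BA. It is likewise uncharacterized, and with BA its bpc libraries lay above those of WT (log2 change -2.13 in WT and -1.72 in bpc). RPKM values of AT1G49030 were 8.13, 6.56 and 7.94 in WT with vehicle, 2.19, 1.87 and 0.919 in WT with BA, 7.81, 6.17 and 6.48 in bpc with vehicle and 1.69, 1.06 and 1.72 in bpc with BA. AT1G49030 encodes a PLAC8 family protein, and the genotypes overlapped (log2 change -1.94 in WT and -1.89 in bpc); its exons overlap AT1G49032 on the same strand, at 7.69 RPKM in vehicle-treated WT and 8.25 in BA-treated WT. RPKM values of PGX1 were 11.2, 11.4 and 9.42 in WT with vehicle, 1.96, 2.21 and 2.79 in WT with BA, 8.33, 9.4 and 8.27 in bpc with vehicle and 2.1, 2.35 and 1.92 in bpc with BA. PGX1 encodes a polygalacturonase that cuts pectin during cell expansion, and its 3 vehicle libraries in bpc were all below those of WT (log2 change -1.99 in WT and -1.80 in bpc).

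**Figure D2:**
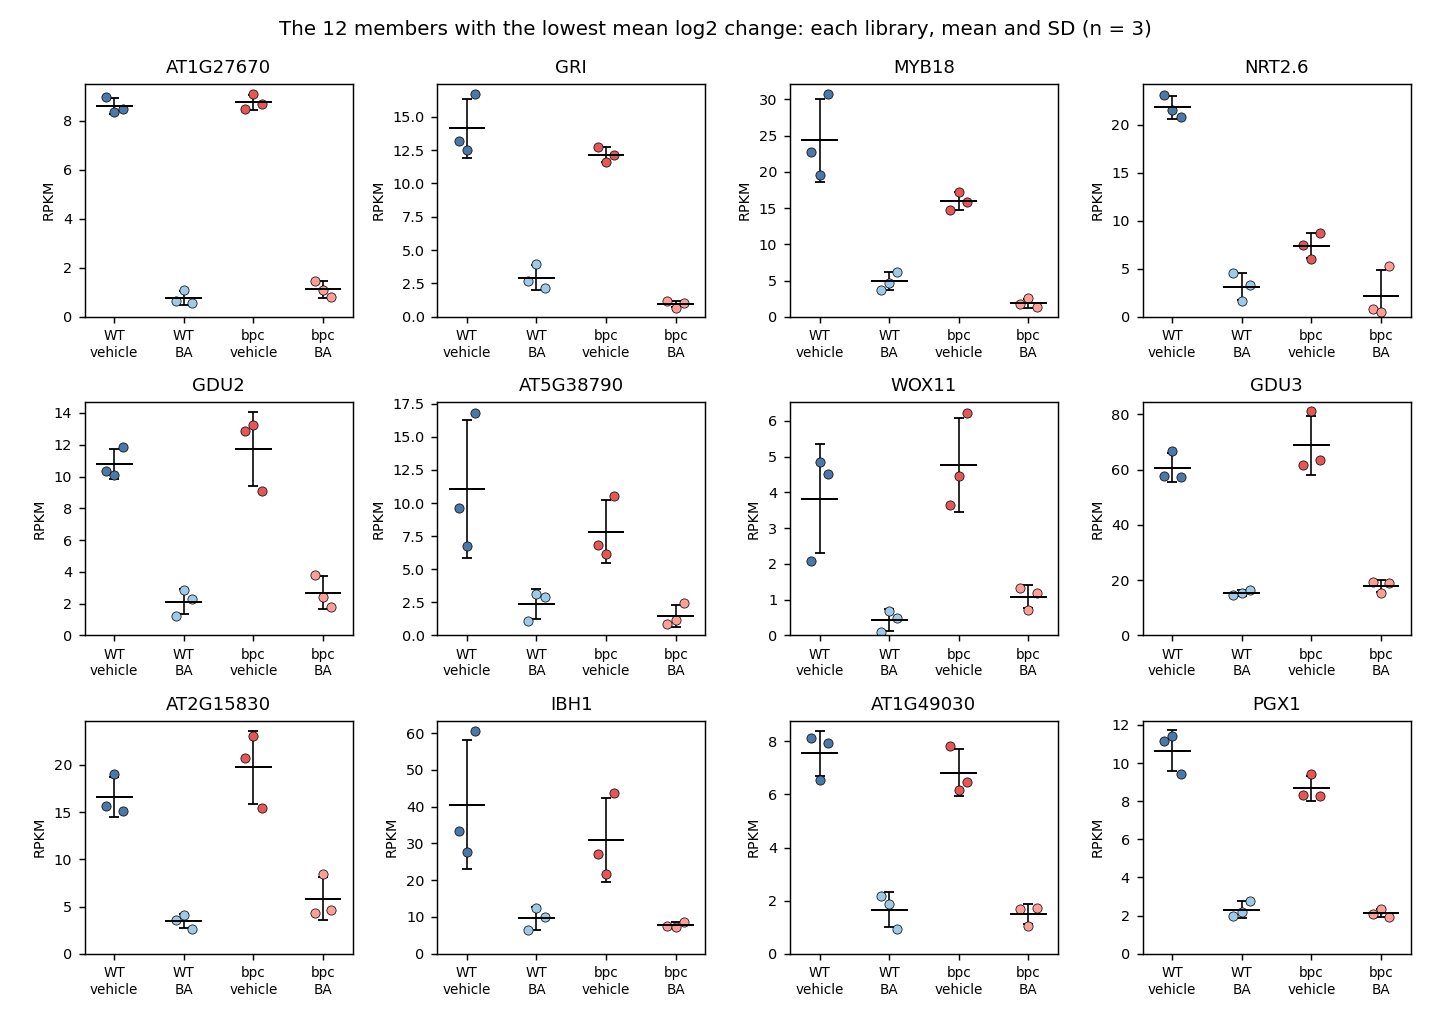
RPKM (y axis, from 0) of the 12 genes with the lowest mean log2 change, in each of the 12 libraries by group; points are libraries, bars the mean and whiskers the SD (n = 3). In every panel the BA points lie below the vehicle points of the same genotype, which the selection required, and NRT2.6 shows bpc BA replicate 3 at 5.26 RPKM above the other libraries of its group.

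Regulators of lateral root initiation were taken as a list, chosen with earlier results of these data known. In this list of 8 genes, all tested, 4 were selected (LBD16, LBD17, LBD29 and GATA23). Counting every listed gene, 0 were higher and 4 lower with BA at the limma threshold in WT, and 0 and 5 in bpc, with median log2 changes of -1.12 and -1.32; of all 20776 tested genes, 3.85% were higher and 4.83% lower in WT, and 4.24% and 4.36% in bpc, with medians of -0.05 and 0.00. The 4 lower ones in WT were LBD16, LBD17, LBD29 and LBD33. GATA23 missed the threshold in WT (log2 change -1.16, limma adjusted p = 0.0578). The BA contrasts chose the 4 selected genes, so nothing further is read from these counts. The listed genes ARF7, ARF19 and LBD18 were not selected, and LBD33, at 1.14 ± 0.618 RPKM in vehicle-treated WT and 0.242 ± 0.0823 in BA-treated WT (n = 3), was under the level limit of 2 RPKM.

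LBD16, LBD17 and LBD29 encode LATERAL ORGAN BOUNDARIES domain factors, of which LBD16 and LBD29 act downstream of ARF7 and ARF19 in auxin-driven lateral root formation. In WT, LBD16 stood at 6.69, 7.62 and 8.82 RPKM with vehicle and at 2.8, 3.21 and 1.92 after BA, and in bpc at 5.35, 6.69 and 6.09 and 1.79, 2.65 and 1.92. No BA library reached the lowest vehicle library, and the genotypes overlapped with either treatment (log2 change -1.40 in WT and -1.33 in bpc). In WT, LBD17 stood at 1.96, 1.74 and 4.32 RPKM with vehicle and at 0.347, 0.312 and 0.357 after BA, and in bpc at 1.52, 1.8 and 4.01 and 0.866, 0.37 and 0.643. Replicate 3 was the highest vehicle library of LBD17 in both genotypes, and its 3 BA libraries in bpc were above those in WT (log2 change -1.83 in WT and -1.31 in bpc). In WT, LBD29 stood at 2.84, 2.51 and 2.8 RPKM with vehicle and at 0.626, 0.965 and 0.644 after BA, and in bpc at 3.13, 2.73 and 3.29 and 0.894, 0.858 and 0.885. LBD29 overlapped between the genotypes (log2 change -1.38 in WT and -1.36 in bpc). LBD16 and LBD17 are next to each other on chromosome 2, with 3363 bases and no other gene of the table between them, and LBD17 and LBD29 had under 10 reads in at least 1 library.

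With vehicle, GATA23 was at 2.85, 2.73 and 3.48 RPKM in WT and 1.49, 4.17 and 2.59 in bpc. With BA, GATA23 was at 0.683, 1.72 and 0.984 RPKM in WT and 0.409, 1.46 and 0.507 in bpc. GATA23 encodes a GATA factor that specifies lateral root founder cells, and bpc vehicle replicate 1 lay just above the highest bpc BA library, at 1.49 against 1.46 RPKM (log2 change -1.16 in WT and -1.34 in bpc). With vehicle, WOX11 was at 2.07, 4.86 and 4.53 RPKM in WT and 3.64, 4.47 and 6.22 in bpc. With BA, WOX11 was at 0.0953, 0.685 and 0.49 RPKM in WT and 1.33, 0.711 and 1.18 in bpc. WOX11 is a WUSCHEL-related homeobox gene known from the start of adventitious roots, and its bpc libraries with BA lay above those of WT (log2 change -2.21 in WT and -1.74 in bpc). In the WUSCHEL-related list, 8 of 15 genes were tested, and 0 were higher and 2 lower with BA in each genotype; WOX11 was the 1 selected gene of that list. MAKR4, a membrane-associated regulator of lateral root spacing named here after its values were seen, had 7.67 ± 1.28 RPKM in WT with vehicle, 3.27 ± 1.07 with BA, 7.3 ± 2.12 in bpc with vehicle and 3.12 ± 0.101 with BA (SD, n = 3).

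The 250 bases before the start of LBD29 and of the auxin-conjugating enzyme gene GH3.2 are shown because they hold several of the motifs searched for, read 5′ to 3′ from RefSeq assembly TAIR10.1, with every match on either strand in capitals. The motifs are AGATT and the longer AGATAC of type-B response regulators, GAGAGA as bound by BASIC PENTACYSTEINE factors, the G-box CACGTG, the W-box core TTGAC and the auxin response element TGTCTC. They lie at chr3:21549573-21549822, minus strand for LBD29 and chr4:17579368-17579617, plus strand for GH3.2.
LBD29: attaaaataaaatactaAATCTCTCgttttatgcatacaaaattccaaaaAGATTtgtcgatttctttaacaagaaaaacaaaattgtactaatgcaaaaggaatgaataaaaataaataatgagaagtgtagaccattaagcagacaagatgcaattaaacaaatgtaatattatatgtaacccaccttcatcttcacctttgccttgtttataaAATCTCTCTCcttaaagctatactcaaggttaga
GH3.2: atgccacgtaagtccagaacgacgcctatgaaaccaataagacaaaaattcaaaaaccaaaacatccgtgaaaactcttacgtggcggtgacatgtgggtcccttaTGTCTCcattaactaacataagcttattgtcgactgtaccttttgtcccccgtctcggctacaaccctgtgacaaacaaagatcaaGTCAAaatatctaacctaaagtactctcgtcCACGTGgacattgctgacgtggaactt
LBD29 held 3 matches of AGATT, the type-B response regulator core, and 3 of GAGAGA, some of them overlapping. GH3.2 held 1 match of TGTCTC, the auxin response element, 1 of CACGTG, the G-box, and 1 of TTGAC, the W-box core.

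Over all 142 promoters of 250 bases, AGATT was in 48.6%, against 62.6% of the promoters of 20594 tested genes, and AGATAC in 7.75% against 9.37%. GAGAGA was in 17.6% against 19.6%, CACGTG in 5.63% against 7.18%, TTGAC in 45.8% against 45.2% and TGTCTC, added after the values were seen, in 7.75% against 10.7%. The promoters of the selected genes had a median of 29.2% G and C, against 31.2% for all tested genes. These are counts of letters in this window and carry no test.

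A DNA-binding domain of 1 of 11 transcription factor families was annotated for 27 of the 142 genes (19.0%), against 3.13% of all 20776 tested genes, and the ERF, WRKY and Aux/IAA genes were already left out. The 27 comprised 9 MYB, 5 bHLH, 3 LBD, 2 homeobox and 2 AT-hook genes, and 1 each of the NAC, GATA, Dof, bZIP, PLATZ and CCT families. Their log2 changes ran from -2.21 to -1.02 in WT and from -2.81 to -1.03 in bpc. The share is a description, since the domains were chosen with the selected genes in view.

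Of the MYB genes, MYB28 and MYB51 control synthesis of aliphatic and indolic glucosinolates. In WT, MYB28 stood at 32.9, 30.6 and 46.9 RPKM with vehicle and at 15, 18.3 and 14.5 after BA, and in bpc at 33.3, 31.3 and 38.5 and 13.2, 12 and 11.2. In WT, MYB51 stood at 15.3, 11.7 and 15.8 RPKM with vehicle and at 4.62, 6.34 and 5.92 after BA, and in bpc at 13.9, 15.8 and 13.1 and 6.32, 6.58 and 6.35. WT vehicle replicate 3 was high for MYB28, and the BA libraries of bpc were below those of WT for MYB28 but overlapped them for MYB51. In WT, MYB45 stood at 16.2, 12.3 and 25 RPKM with vehicle and at 3.06, 7.95 and 4.49 after BA, and in bpc at 20.3, 18.8 and 22 and 6.54, 5.47 and 8.5. MYB45, on chromosome 3, shares exon sequence with AT3G48930 on the other strand, which stood at 380 RPKM in vehicle-treated WT and 416 in BA-treated WT; reads of the pair cannot be told apart if counting ignored strand. MYBC1 went from 41.3, 42.6 and 51.4 RPKM with vehicle to 12.4, 12.7 and 17.4 with BA in WT, and from 43.2, 41.2 and 53.3 to 16.2, 16.2 and 15.5 in bpc. MYB78 went from 2.55, 2.98 and 3.21 RPKM with vehicle to 0.639, 0.766 and 0.658 with BA in WT, and from 3.02, 2.17 and 5.31 to 0.709, 0.681 and 0.878 in bpc. MYB56 went from 6.56, 7.18 and 9.79 RPKM with vehicle to 2.73, 4.06 and 3.42 with BA in WT, and from 4.87, 4.06 and 4.66 to 1.93, 2.13 and 0.987 in bpc. MYBC1 and MYB78 overlapped between the genotypes, while MYB56 was lower in all 3 bpc libraries than in all 3 WT libraries with vehicle and with BA. MYB38 went from 34.6, 32.1 and 71.3 RPKM with vehicle to 16.4, 25.6 and 20.9 with BA in WT, and from 35.8, 33 and 79.9 to 21.1, 20.2 and 21.2 in bpc. AT5G01200 went from 5.17, 3.91 and 6.14 RPKM with vehicle to 0.652, 1.61 and 1.17 with BA in WT, and from 3.83, 3.2 and 5.7 to 0.732, 1.3 and 1.21 in bpc. Replicate 3 was by far the highest vehicle library of MYB38 in both genotypes, and AT5G01200, a MYB-related gene, showed the same order with a smaller gap.

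Of the bHLH genes, IBH1 restrains cell elongation downstream of brassinosteroids and FIT1 is the master regulator of iron uptake in roots. In WT, IBH1 stood at 33.3, 27.7 and 60.7 RPKM with vehicle and at 6.4, 12.5 and 10.02 after BA, and in bpc at 27.1, 21.8 and 43.6 and 7.44, 7.23 and 8.62. Replicate 3 was the highest vehicle library of IBH1 in both genotypes (log2 change -1.98 in WT and -1.87 in bpc). In WT, FIT1 stood at 34.7, 30.6 and 26.2 RPKM with vehicle and at 10.2, 12.9 and 10.1 after BA, and in bpc at 33.8, 32.9 and 28.5 and 8.89, 9.17 and 8.66. FIT1 showed no such library, and its BA libraries in bpc were all below those in WT (log2 change -1.42 in WT and -1.77 in bpc). RPKM values of CIB2 were 65.7, 54.2 and 103 in WT with vehicle, 26.5, 38.7 and 29 in WT with BA, 63.5, 63.9 and 97.3 in bpc with vehicle and 28.8, 28.8 and 33.1 in bpc with BA. RPKM values of AT2G43140 were 35.7, 32.3 and 45 in WT with vehicle, 10.2, 14.9 and 16.6 in WT with BA, 33.6, 32.7 and 35.5 in bpc with vehicle and 11.2, 8.27 and 10.1 in bpc with BA. RPKM values of AT1G31050 were 17, 17.6 and 27.3 in WT with vehicle, 5.61, 7.93 and 8.54 in WT with BA, 16.2, 18.5 and 21.5 in bpc with vehicle and 8.12, 8.06 and 8.43 in bpc with BA. CIB2 is related to cryptochrome-interacting factors and, like IBH1, was highest in replicate 3 with vehicle; in each of the 3 genes the vehicle values of the genotypes overlapped.

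HAT9 encodes an HD-Zip factor and bZIP3 a basic leucine zipper factor. With vehicle, HAT9 was at 7.96, 5.72 and 8.75 RPKM in WT and 6.89, 5.83 and 5.92 in bpc. With BA, HAT9 was at 1.61, 3.16 and 2.04 RPKM in WT and 2.2, 3.52 and 1.81 in bpc. In WT, bZIP3 stood at 6.74, 6.71 and 11.9 RPKM with vehicle and at 2.1, 3.86 and 2.05 after BA, and in bpc at 9.95, 12.7 and 12.4 and 4.71, 4.02 and 3.63. HAT9 overlapped between the genotypes, as did bZIP3. GIK and AHL17 encode AT-hook proteins, and GIK, GIANT KILLER, is known from flower patterning. GIK went from 58.6, 62.1 and 48 RPKM with vehicle to 13.5, 17.9 and 19.95 with BA in WT, and from 46.3, 48.4 and 35.7 to 11.7, 14.3 and 12.9 in bpc. AHL17 went from 10.5, 12.2 and 13.9 RPKM with vehicle to 3.72, 5.66 and 5.42 with BA in WT, and from 9.58, 12.9 and 12.4 to 4.43, 6.05 and 5.87 in bpc. Both were lower with BA by a similar amount in both genotypes (log2 change -1.70 in WT and -1.70 in bpc, and -1.24 and -1.03 for AHL17). NAP encodes a NAC factor that promotes senescence. In WT, NAP stood at 11.7, 14.2 and 19.4 RPKM with vehicle and at 4.52, 4.35 and 4.09 after BA, and in bpc at 12.2, 17.3 and 14.1 and 3.58, 3.66 and 3.66. Its BA libraries in bpc, within 3.58 to 3.66 RPKM, lay below those in WT. RPKM values of AT1G63820 were 2.69, 3.42 and 7.38 in WT with vehicle, 1.31, 1.65 and 1.28 in WT with BA, 5.09, 4.37 and 5.22 in bpc with vehicle and 1.64, 1.89 and 1.54 in bpc with BA. RPKM values of AT4G00940 were 12.3, 11.6 and 20.7 in WT with vehicle, 5.13, 8.27 and 6.55 in WT with BA, 12.2, 12.7 and 19.5 in bpc with vehicle and 6.45, 6.03 and 6.56 in bpc with BA. RPKM values of AT4G17900 were 48.5, 41.3 and 44 in WT with vehicle, 19.98, 24.1 and 21.1 in WT with BA, 53.2, 52 and 53.1 in bpc with vehicle and 23.6, 26.4 and 24.4 in bpc with BA. These encode a CCT motif, a Dof-type and a PLATZ protein, and replicate 3 of WT with vehicle was the highest for AT1G63820 and AT4G00940. AT4G17900 was higher in all bpc libraries than in all WT libraries with vehicle.

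**Figure D3:**
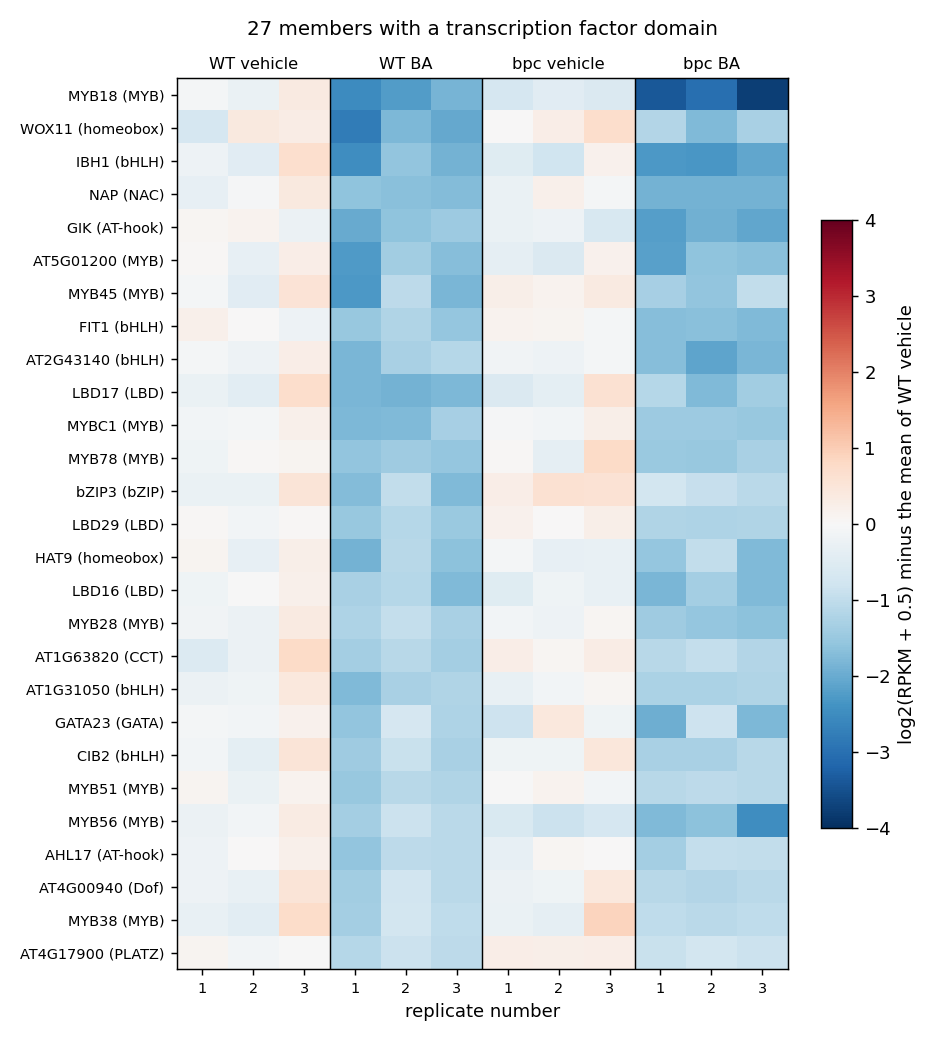
Colour gives log2(RPKM + 0.5) minus the mean of the WT vehicle libraries for the 27 selected genes with a transcription factor domain (rows, ordered by mean change) in each of the 12 libraries (columns, by group and replicate number). The BA columns of both genotypes are blue throughout, as selected, and vehicle replicate 3 is red for genes such as MYB38 (71.3 RPKM in WT and 79.9 in bpc).

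Auxin genes made up 11 of the 142, beside the LBD and GATA23 genes downstream of auxin. GH3.1 and GH3.2 encode enzymes that join auxin to amino acids. In WT, GH3.1 stood at 2.64, 3.29 and 2.7 RPKM with vehicle and at 1.0, 1.2 and 0.814 after BA, and in bpc at 2.87, 1.86 and 1.78 and 0.666, 0.755 and 0.772. In WT, GH3.2 stood at 6.26, 5.76 and 4.11 RPKM with vehicle and at 1.13, 1.81 and 1.78 after BA, and in bpc at 5.23, 4.52 and 4.3 and 2.21, 1.97 and 1.59. The BA libraries of GH3.1 in bpc lay below those in WT, and those of GH3.2 overlapped. In the list of 9 GH3 enzymes, 7 were tested, with 2 higher and 2 lower with BA in each genotype: GH3.1 and GH3.2 were the lower ones, and GH3.6 (log2 change 0.68 in WT and 1.00 in bpc) and GH3.17 (0.74 and 0.89) were higher. A further gene annotated in the family, AT1G48690, was also selected (log2 change -1.07 in WT and -1.18 in bpc).

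Other auxin genes, named after their values were seen, are given by mean and SD (n = 3). WAG1 and WAG2 encode kinases that phosphorylate PIN auxin carriers. WAG1 was at 13.7 ± 0.728 RPKM in vehicle-treated WT and 3.6 ± 0.50 in BA-treated WT, and 10.7 ± 0.186 and 2.6 ± 0.228 in bpc. For WAG2 the values were 17.2 ± 4.16 and 5.74 ± 0.743 in WT and 16.6 ± 1.31 and 7.3 ± 0.881 in bpc. The bpc libraries of WAG1 were below the WT libraries with either treatment, whereas those of WAG2 overlapped with vehicle and were above with BA. IAMT1, which methylates auxin, had log2 changes of -1.08 in WT and -1.24 in bpc, and AUF2, an F-box gene of auxin transport, of -1.25 and -1.05.

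SAUR76, SAUR55 and SAUR78 belong to the SMALL AUXIN UP RNA family. SAUR78, the most abundant, was at 83.4 ± 12.4 RPKM in vehicle-treated WT and 38.6 ± 7.6 in BA-treated WT. The family as a whole went the other way more often: of 36 tested SAUR genes, 13 were higher and 5 lower with BA in WT, and 14 and 5 in bpc, with median log2 changes of 0.17 and 0.25. The selected SAUR genes are among the 5 lower ones of a family with more higher than lower members.

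Transporters of nitrogen compounds continued beyond NRT2.6 and the GDU genes. In WT, NRT1.8 stood at 52.5, 39.6 and 52.4 RPKM with vehicle and at 13.6, 13.9 and 18 after BA, and in bpc at 40.7, 45.8 and 30.3 and 14.9, 12.6 and 19.9. NRT1.8 encodes a transporter that retrieves nitrate from the xylem sap, and its exons overlap those of AT4G21670 on the other strand, at 14.0 RPKM in vehicle-treated WT and 12.3 in BA-treated WT. In the list of 16 nitrate and ammonium transporters, 10 were tested and the 2 that were lower in each genotype were NRT2.6 and NRT1.8, with 0 higher. NRT1:2, a low-affinity nitrate transporter that also carries abscisic acid, was at 37 ± 2.44 RPKM in vehicle-treated WT and 18.2 ± 3.81 in BA-treated WT. The amino acid transporter family gene UMAMIT31 and the cation transporter gene OCT3 complete the 7 transporters. OCT3 had log2 changes of -1.52 in WT and -1.19 in bpc. The fall was larger in WT for 6 of the 7, against 76 of the 142. These 7 were grouped after their values were seen, and WT BA replicate 1, with its low total, is in the WT changes. Without bpc BA replicate 3, the bpc change minus the WT change of NRT2.6 was -0.054.

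ETR2, an ethylene receptor that is itself induced by ethylene, was the 1 selected gene of 13 listed ethylene receptors and feedback genes. In WT, ETR2 stood at 13.1, 10.1 and 11.3 RPKM with vehicle and at 3.0, 2.67 and 3.14 after BA, and in bpc at 12.2, 12.2 and 12.1 and 4.21, 3.82 and 4.91. All BA libraries of bpc were above those of WT (log2 change -1.80 in WT and -1.40 in bpc). Among the 13 listed genes, 0 were higher and 4 lower with BA in WT, and 1 and 4 in bpc. The lower ones in both were ETR2, ERS1, EBF2 and EIL1. ACO5, an ACC oxidase of the last step of ethylene synthesis, was the most abundant of the 142 in WT with vehicle at 205 ± 14.8 RPKM, with 72.5 ± 6.95 with BA, 213 ± 35 in bpc with vehicle and 63.2 ± 6.35 in bpc with BA (n = 3).

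Cytokinin genes themselves were few after the isopentenyltransferases had been left out. LOG1, which activates cytokinin from its nucleotide form, was at 4.97 ± 0.689 RPKM in vehicle-treated WT and 1.42 ± 0.175 in BA-treated WT. AHK5 went from 14.6, 13.6 and 14.3 RPKM with vehicle to 5.4, 6.23 and 6.68 with BA in WT, and from 9.94, 10.2 and 10.6 to 3.15, 4.25 and 3.9 in bpc. AHK5 encodes a cytosolic histidine kinase of root growth and stomata and is not a cytokinin receptor; its bpc libraries were below those of WT with either treatment. ABCG25, an exporter of abscisic acid, had log2 changes of -1.18 in WT and -1.14 in bpc. Of 9 tested abscisic acid phosphatases and targets, 0 were higher and 1 lower with BA in each genotype, and none was selected.

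In the list of 19 iron genes, 18 were tested. With BA, 1 was higher and 2 lower in WT, and 3 were higher and 1 lower in bpc, and FIT1, described above, was the 1 selected gene. IRT2, an iron transporter, was higher with BA in both (log2 change 1.40 in WT and 1.48 in bpc), and BHLH101 was lower in WT (-0.89) with 0.11 in bpc. Of 9 phosphate, sulfate, potassium and sodium transporters, 0 were higher and 1 lower in each genotype. That gene, PHT1;4, a phosphate transporter, fell short of the selection in bpc, at -0.91.

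Cell wall genes made up 16 of the 142, among them 4 polygalacturonase-like genes of glycoside hydrolase family 28. AT1G05650 was at 64.8 ± 10.00 RPKM in vehicle-treated WT and 20.01 ± 3.54 in BA-treated WT, and AT2G43890 had 57.1 ± 2.62 and 26.3 ± 2.34 (n = 3). AT1G02460 and PGX1 were expressed at lower levels. Of the 31 tested genes of that family, 1 was higher and 6 lower in WT, and 1 and 7 in bpc, with medians near 0 (-0.05 and -0.11). The family holds 4 genes chosen on their BA values, so nothing further is read from these counts. EXPA17, an expansin known to act in lateral root emergence, was among the most abundant of the 142, with 193 ± 11.2 RPKM in WT with vehicle, 87.8 ± 1.86 with BA, 176 ± 11.3 in bpc with vehicle and 80.5 ± 6.38 with BA.

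Wall proteins and wall enzymes also included the extensin-like genes LRX2 and AT1G26240, the xylan enzyme gene FRA8, the acetyltransferase family gene TBL27, the dirigent gene DIR5 and the peroxidase genes AT1G49570, AT4G33420 and AT4G16270. LRX2 was at 16.3 and 15.3 RPKM in WT vehicle replicates 1 and 2 and at 40.5 in replicate 3. TBL27 was at 22.4 ± 1.02 RPKM in vehicle-treated WT and 10.2 ± 0.12 in BA-treated WT (SD, n = 3). Of 62 tested plant peroxidases, 2 were higher and 14 lower in WT, and 3 and 12 in bpc. Of all tested genes, 3.85% were higher and 4.83% lower in WT, and 4.24% and 4.36% in bpc. The family was taken up because it holds 3 genes chosen on their BA values, so nothing further is read from its counts.

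EXL4, an EXORDIUM-like gene, lies 4769 bases from the hydrolase gene AT5G09430 on chromosome 5 with no other gene of the table between them. In WT, EXL4 stood at 58.2, 67 and 45.8 RPKM with vehicle and at 19.8, 19.6 and 23.8 after BA, and in bpc at 58.2, 71.9 and 45.9 and 24.2, 29.3 and 27.6. In WT, AT5G09430 stood at 3.37, 2.84 and 4.04 RPKM with vehicle and at 1.1, 1.15 and 0.471 after BA, and in bpc at 2.7, 4.3 and 4.24 and 1.46, 0.586 and 1.36. The pair differed widely in level, and the genotypes overlapped with vehicle for both; with BA the bpc libraries of EXL4 lay above those of WT. The exons of AT5G09430 overlap AT5G09420 on the same strand. With LBD16 and LBD17, these were the 2 pairs of neighbours among the 142, which were spread as 41, 29, 18, 21 and 33 genes over chromosomes 1 to 5.

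Proteins with DC1 domains, cysteine- and histidine-rich modules of plants, made up 6 of the 142. AT5G40590 was at 55.3 ± 2.84 RPKM in vehicle-treated WT and 18.5 ± 2.7 in BA-treated WT, and 52.8 ± 5.61 and 15 ± 3.6 in bpc. AT2G27660, AT3G13760 and AT1G61840 had log2 changes of -1.26, -1.11 and -1.47 in WT and -1.15, -1.16 and -1.53 in bpc. Over the whole family, 28 of 107 tested genes were lower and 0 higher with BA in WT, and 30 were lower and 2 higher in bpc, with median log2 changes of -0.37 and -0.41 against -0.05 and 0.00 for all tested genes. The family was singled out after its values were seen.

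**Figure D4:**
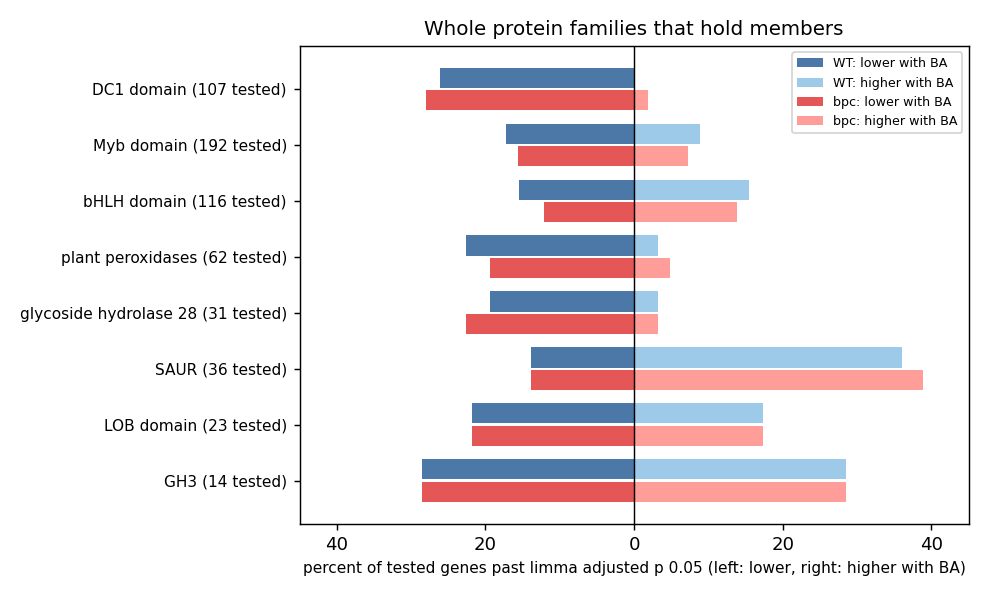
Percent of the tested genes of 8 protein families that passed the limma threshold as lower (left) or higher (right) with BA, in WT and in bpc. The DC1 family has 28 of 107 genes lower and 0 higher in WT, and the SAUR family has more genes higher (13 of 36) than lower (5 of 36).

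Signalling genes beyond GRI numbered 17. They include the kinase genes CIPK13, CIPK25, MAPKKK15, PPCK2 and NEK2, the peptide gene CLE7, the NADPH oxidase gene RBOHB, which makes reactive oxygen, and RTFL16 of the ROTUNDIFOLIA-like small peptides. PPCK2, a kinase of phosphoenolpyruvate carboxylase, had the lowest changes of these (log2 change -1.76 in WT and -1.92 in bpc). CLE7 was the least abundant gene of the 142 in WT with vehicle, at 2.0 ± 0.647 RPKM. Among 18 genes of metabolism, the sulfotransferase gene ST4C (log2 change -1.60 in WT and -1.85 in bpc) was near the top and UGT74F2, which glucosylates salicylic acid, was at 37.4 ± 3.85 RPKM in vehicle-treated WT and 12.9 ± 2.37 in BA-treated WT. For 34 genes no role is given here, and their log2 changes ran from -2.87 to -1.0 in WT and from -2.53 to -1.01 in bpc; 16 of the 142 (11.3%) are annotated as uncharacterized or hypothetical, against 6.96% of tested genes.

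Several lists held no selected gene. Among 12 tested salicylic acid and immune regulators, 1 was higher and 2 lower with BA in WT, and 1 and 3 in bpc; NPR3, a salicylic acid receptor, was lower in both (-0.89 and -0.90). Of 6 touch-response genes, 0 were higher and 1 lower in each genotype. Of 10 root hair genes, 0 were higher and 1 lower in WT and 2 and 0 in bpc, and of 10 endodermis genes 0 were higher and 2 lower in each. For 8 suberin genes the counts were 2 and 1 in WT and 2 and 0 in bpc, and of 10 tested photosynthesis genes none passed in either direction. The 11 summed endodermis markers, none at 0, ran from 638 to 708 RPKM in WT with vehicle, 486 to 629 with BA, 573 to 606 in bpc with vehicle and 527 to 554 with BA; their part in the levels of the selected genes was not tested.

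The selected genes were compact. A single exon block was annotated for 42.3% of them, against 18.5% of tested genes, and the median exon length was 1441 bases against 1737. Their median level over the 12 libraries was 9.22 RPKM, against 10.7 for all tested genes. Exons of 22 overlap a locus of the table on the other strand, and although the labels name a stranded library kit, the sources used here do not give the strand setting of the counting. None of the 20 tested partners was at -1 or lower, with log2 changes of -0.45 to 0.17 in WT and -0.47 to 0.21 in bpc. AT4G20730 has copies elsewhere of over 95% identity along at least 100 bases, so its reads are uncertain. Whole read numbers could be recovered for all 142 within a tolerance of 0.01 reads. The fewest reads that the values allow were taken, so the true numbers may be multiples of those given. The gene length they imply equals the annotated exon length for only 11, and the cause of the mismatch was not tested. By these numbers the median was 172 reads in a vehicle library and 61 in a BA library, and 27 genes, among them GRI, WOX11, LBD17, LBD29 and GATA23, had under 10 in some library.

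Whether the genotypes differed in these genes was tested, since the selection did not compare bpc with WT. With vehicle, 2 of 142 (1.41%) were higher and 1 (0.704%) lower in bpc by limma at an adjusted p under 0.05. Of all tested genes, 0.91% were higher and 1.08% lower, so the shares in this fit were near the background. An unadjusted limma p under 0.05 was found for 23. The share over all tested genes was not counted, so nothing is read from this number. The vehicle libraries of replicate 3 deviated together in both genotypes, while numbers 1 and 2 were not clearly paired. A fit of the 6 vehicle libraries alone, with the number as a block, was added after the data were seen. It gave 3 of 142 higher and 9 lower, against 1.88% and 2.17% of all tested genes. In that fit the lower share was above that of all tested genes, and the higher share was near it. SDI1, AT2G36690 and AT2G15320 (log2 difference 0.50) were the higher ones by that fit. NRT2.6 (-1.51), DIR5 (-0.95), AT1G61750 (-0.80), CYP71A20 (-0.78), RTFL16 (-0.70), AT5G43520 (-0.63), AHK5 (-0.45), GIK (-0.37) and IBH1 (-0.37) were the lower ones, with limma adjusted p-values of 0.00587 to 0.0483; that fit has 2 residual degrees of freedom. With BA, 4 were higher and 4 lower (2.82% each), against 1.29% and 1.03%. There 36 had an unadjusted limma p under 0.05, again with no share over all tested genes to set beside it. The median log2 difference was -0.02 with either treatment, against 0.04 with vehicle and 0.08 with BA for all tested genes. All 3 bpc libraries lay above all 3 WT libraries for 8 genes with vehicle (5.63%, against 9.89% of all tested genes) and for 20 with BA (14.1%, against 19.1%). They lay below them for 15 with vehicle (10.6%, against 6.77%) and 20 with BA (14.1%, against 6.48%). WT BA replicate 1, with its low total, is in the comparison with BA. In the authors' deposited table for vehicle, 141 of the genes were listed, with 7 higher and 22 lower in bpc at an FDR under 0.05. Of its 19706 genes, 6.38% were higher and 6.75% lower. There the lower share of the selected genes was above that of all genes, and the higher share was not.

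SDI1 passed with both treatments. It encodes a protein induced by sulfur shortage that holds back glucosinolate synthesis through MYB28. In WT, SDI1 stood at 16.6, 18.5 and 23.6 RPKM with vehicle and at 8.5, 8.33 and 10.3 after BA, and in bpc at 36.8, 45.2 and 41.3 and 16.5, 20.2 and 17.5. Every bpc library lay above every WT library of the same treatment, with a log2 difference of 1.06 ± 0.14, limma adjusted p = 0.00223 in the vehicle comparison and 0.96 ± 0.14, limma adjusted p = 0.00322 with BA (bpc minus WT, ± SE). The call with vehicle was kept on leaving out each of the 12 libraries, with an adjusted p of up to 0.0126, and the limma fit of the 2 vehicle groups alone gave 0.0531. MYB28 did not pass in either comparison (-0.08 ± 0.16, limma adjusted p = 0.909 in the vehicle comparison and -0.37 ± 0.16, limma adjusted p = 0.269 with BA).

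In WT, AT2G36690 stood at 7.24, 9.3 and 7.67 RPKM with vehicle and at 1.97, 3.36 and 3.84 after BA, and in bpc at 12.8, 16.5 and 18.4 and 6.12, 7.06 and 5.83. AT2G36690 encodes a 2-oxoglutarate-dependent oxygenase, and the bpc libraries were above the WT libraries with both treatments (0.93 ± 0.20, limma adjusted p = 0.033 in the vehicle comparison and 0.98 ± 0.20, limma adjusted p = 0.0242 with BA). The vehicle call was lost without WT vehicle replicate 1, 2 or 3, bpc vehicle replicate 2 or 3, or any bpc BA replicate (log2 difference 0.82 to 1.03, limma adjusted p up to 0.125), without the low-value filter (0.0583) and in the 2 compared groups alone (0.0955), and the BA call without WT BA replicate 1 or any bpc BA replicate (0.74 to 1.03, up to 0.106). In WT, AT1G44050 stood at 9.86, 6.44 and 10.9 RPKM with vehicle and at 2.7, 2.67 and 2.47 after BA, and in bpc at 4.49, 5.73 and 5.06 and 1.79, 1.74 and 1.93. This DC1 gene was lower in bpc with vehicle (-0.75 ± 0.17, limma adjusted p = 0.044), where the groups did not overlap, and with BA the difference was -0.42 ± 0.17, limma adjusted p = 0.251. Its vehicle call held on leaving out WT vehicle replicate 2 and was lost on leaving out any other library, with a difference of -0.83 to -0.61 and a limma adjusted p of up to 0.167. It was also lost with the replicate block (limma adjusted p 0.0551 over the 12 libraries and 0.0927 over the 6 vehicle libraries), without the low-value filter (0.0697) and in the 2 compared groups alone (0.25).

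With BA, the DC1 gene AT5G43520 had the lowest adjusted p of the 142. In WT, AT5G43520 stood at 125, 112 and 129 RPKM with vehicle and at 44.9, 63.5 and 75.9 after BA, and in bpc at 80.00, 77.1 and 79.2 and 30.2, 28.8 and 27.2. All bpc libraries were below all WT libraries with either treatment. The difference was -1.05 ± 0.15, limma adjusted p = 0.00276 with BA and -0.63 ± 0.15, limma adjusted p = 0.0575 with vehicle. GRI, whose library values stand above, was -1.23 ± 0.19, limma adjusted p = 0.00497 with BA and -0.20 ± 0.19, limma adjusted p = 0.756 with vehicle, and both genes passed with BA on leaving out each library. MYB18 was -1.18 ± 0.22, limma adjusted p = 0.0143 with BA, and lost the call without WT BA replicate 3 or bpc BA replicate 1 or 3 (-1.18 to -0.99, limma adjusted p up to 0.0692). AHK5 was -0.63 ± 0.12, limma adjusted p = 0.019 with BA, and lost it without WT BA replicate 2 or 3 or bpc BA replicate 1 or 3 (-0.66 to -0.53, limma adjusted p up to 0.0821). The exons of GRI, MYB18 and AHK5 overlap a gene on the other strand.

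The other 2 genes that passed were higher in bpc with BA. In WT, UMAMIT31 stood at 14.1, 17 and 14.2 RPKM with vehicle and at 5.26, 4.56 and 4.61 after BA, and in bpc at 19.6, 19.8 and 16.4 and 7.7, 7.45 and 7.24. The BA libraries did not overlap, and the vehicle libraries did (0.59 ± 0.12, limma adjusted p = 0.0201 with BA). In WT, AT2G15320 stood at 16.3, 21.7 and 24.8 RPKM with vehicle and at 6.86, 8.55 and 8.58 after BA, and in bpc at 25.1, 27.1 and 36.9 and 14, 13.2 and 14.4. This leucine-rich repeat gene was higher in every bpc library with either treatment (0.76 ± 0.17, limma adjusted p = 0.0345 with BA and 0.50 ± 0.17, limma adjusted p = 0.183 with vehicle). UMAMIT31 lost its call without WT BA replicate 2 or 3 or any bpc BA replicate (0.55 to 0.61, limma adjusted p up to 0.0875), and AT2G15320 without any 1 of the 6 BA libraries (0.66 to 0.82, up to 0.133).

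**Figure D5:**
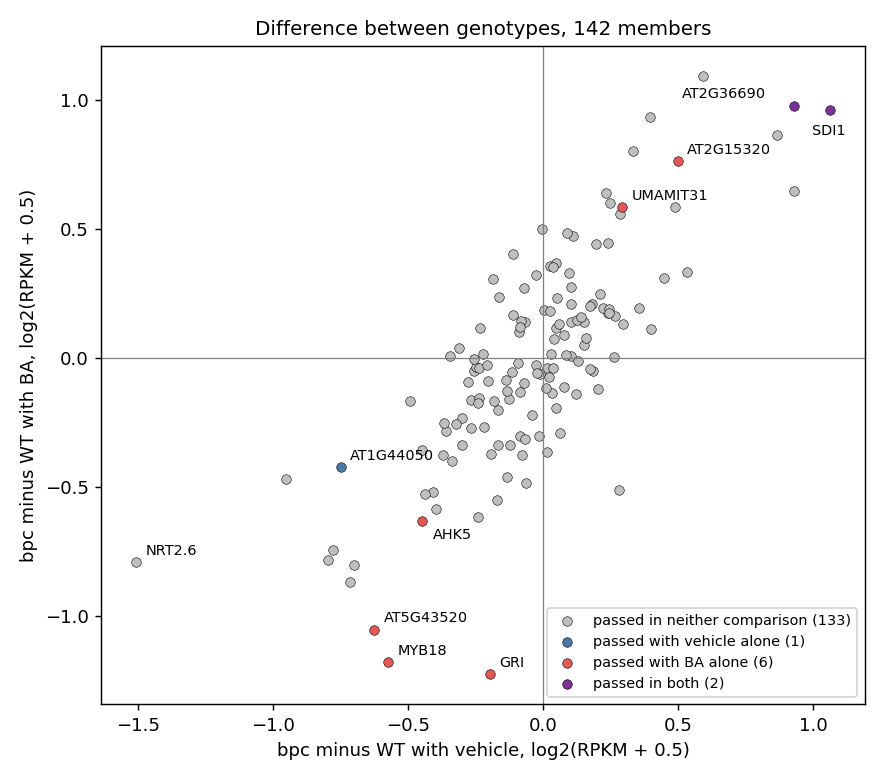
Log2 difference of bpc minus WT for the 142 genes with vehicle (x axis) and with BA (y axis), coloured by the comparison in which limma's adjusted p was under 0.05. SDI1 (1.06 and 0.96) and AT2G36690 (0.93 and 0.98) passed in both, and GRI reached -1.23 with BA; the axes share no libraries.

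The size of the fall in bpc against WT is a difference of the contrasts that chose the genes, so it is described without a test. The largest differences, as bpc change minus WT change, were those of GRI (-1.03), AT4G21902 (-0.79), NRT2.6 (0.72) and MYB18 (-0.61) on the log2 scale. In WT, AT4G21902 stood at 3.04, 3.64 and 6.46 RPKM with vehicle and at 1.21, 1.96 and 1.25 after BA, and in bpc at 3.97, 3.7 and 9.2 and 0.968, 0.517 and 1.2. This uncharacterized gene overlapped between the genotypes with vehicle and its bpc libraries with BA lay below those of WT. Its difference was -0.40 without bpc vehicle replicate 3 and -1.08 without WT vehicle replicate 3, and its BA libraries held 2 to 9 reads by the recovered numbers. Without bpc BA replicate 3, the value of NRT2.6 was -0.054. With vehicle the bpc minus WT difference of NRT2.6 was -1.51 ± 0.50, limma adjusted p = 0.167, although the groups did not overlap; with the block in the vehicle groups alone, the limma adjusted p was 0.00587.

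Vehicle replicate 3 stood apart for a number of the selected genes. In WT with vehicle it exceeded both other libraries by over 1.5 times for 20 of the 142 (14.1%), against 7.58% of all tested genes, and in bpc for 22 (15.5%), against 5.92%. In both genotypes at once it did so for 16 (11.3%), against 2.73%: IBH1, LBD17, MYB38, CIB2, AT4G00940, DIR5, LRX2, AT1G26240, AT1G61750, CYP71A20, AT2G15880, AT3G52520, AT4G21902, AT4G31470, AT5G38790 and AT5G66985. For these genes the vehicle level, and with it the BA change, varies with that library. A high vehicle library enlarges the BA change that the rule required. These shares are therefore not independent of the selection and are given as a description. The rule itself gave 121 genes without WT vehicle replicate 3, of which 117 were among the 142, and 125 without bpc vehicle replicate 3, of which 118 were.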

How the data were processed

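RNA of whole roots was sequenced in 12 libraries. The authors deposited RPKM values per gene for the 12 libraries, and a table of log2 fold changes, likelihood ratio scores, p-values and FDR per comparison. Per the submitters' processing notes, the tools were edgeR 3.0, featureCounts, SAMtools 0.1.18, Bowtie 1.1.0 and TopHat2 2.0.11, with TAIR10; the sources used here do not give the strand setting of the counting. The steps between low deposited RPKM values gave the depth, and precision is limited by 3 libraries a group.

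The 20776 genes that reached 0.5 RPKM in 3 or more libraries were tested with limma 3.58.1 in R 4.3.3 on log2(RPKM + 0.5), with a mean-variance trend, 1 coefficient per group and Benjamini-Hochberg adjustment over all tested genes. The added 0.5 makes fold changes of low genes too small. The members and lists were chosen with earlier results of these data known; roles, families and genes beyond the naming rule were chosen after their values were seen. The naming rule took the 12 genes with the lowest mean change, listed genes, transcription factors, genes past the threshold between genotypes, the largest interaction differences, neighbours and the genes at the selection limit. Copies were sought with BLASTN 2.17.0; motifs and figures used Python 3.11.15 and matplotlib 3.10.9. The test was checked on simulated data with independent noise in each library and no BA effect, so correlated libraries were not covered. Deviations from the group means in same-numbered libraries correlated at 0.312 to 0.63 between the vehicle groups, with all 3 pairs over 0.1. Only replicate 3 was set apart there, at 0.63, against -0.517 to -0.359 with other numbers. WT vehicle replicate 1 correlated at 0.312 with bpc vehicle replicate 1 and at 0.335 with bpc vehicle replicate 2. For WT vehicle replicate 2 these values were 0.189 and 0.372, so numbers 1 and 2 are not clearly paired. Same-numbered libraries correlated at -0.052 to 0.0587 between the BA groups, and at no other pair of groups were all 3 over 0.1. Alternatives were other pseudocounts, no filter, quantile normalization, rescaling of WT BA replicate 1, the compared groups alone, a replicate block and leaving out each library.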

Additional observations from a re-analysis of the deposited data

How the results depend on the processing

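The rule gave 142 genes. It gave 167 with a pseudocount of 0.1, 117 with 1, 134 after quantile normalization, 130 after rescaling WT BA replicate 1 and 121 to 164 on leaving out 1 library. With vehicle, limma called 3 of the 142 between genotypes, 1 without the low-value filter, 5 after quantile normalization, 5 after rescaling, 1 in the compared groups alone, 12 in those groups with a replicate block, an alternative chosen after seeing the data, and 1 to 3 on leaving out 1 library. With BA it called 8, 12 after quantile normalization, 12 after rescaling, 12 in the compared groups alone, 7 without the filter and 3 to 11 on leaving out 1 library. With the replicate number as a block over all 12 libraries the calls were 2 with vehicle and 9 with BA; AT1G44050 with vehicle was lost and no other call between genotypes that the text names. The interaction value of NRT2.6, 0.72, was -0.054 to 1.18 on leaving out 1 library, the lowest without bpc BA replicate 3. AT2G36690 with vehicle had a limma adjusted p of 0.0583 without the filter and 0.0955 in the compared groups alone, and AT1G44050 0.0697 and 0.25, with 0.0551 and 0.0927 under the block over 12 and 6 libraries. SDI1 with vehicle had a limma adjusted p of 0.0531 in the compared groups alone, UMAMIT31 with BA 0.0681 after quantile normalization and AT2G15320 with BA 0.0507 without the filter. The cause of these changes was not tested.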
